A study of Mus musculus with 24 samples.

Results

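Gene expression was compared between 3 wild type libraries taken at circadian time 19 (CT19) and 3 wild type libraries taken at CT10, which make 6 of the 24 libraries of the series. The members were chosen by the genotype and the time in their labels, and no measured value was used. All were RNA sequencing libraries of mouse retinal pigment epithelium (RPE), cut out of snap-frozen eyes by laser capture microdissection, and each of the 6 came from 1 eye. The mice were males aged 6 weeks, and their mixed background was C57BL/6/J x 129 SvEvBrd. CT10 lies late in the subjective day and CT19 in the subjective night. For comparison, the same times were read in 3 CT19 and 3 CT10 libraries labelled Per1-/-Per2Brdm1, called Per mutant here, in which both period genes are altered in the germline. At each of these mutant times 1 library was pooled from 2 eyes. No label says that the libraries came from separate animals, and p-values then measure only how much these libraries vary.

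The RPE is the pigmented cell layer behind the retina that recycles visual pigment, moves water and ions towards the choroid and engulfs shed photoreceptor outer segments in a daily rhythm. Its cells carry a circadian clock in which CLOCK and BMAL1 activate genes through E-boxes, among them the Per and Cry repressors, the D-box activators of the Dbp family and the REV-ERB receptors. REV-ERB receptors in turn repress Arntl, the gene of BMAL1, and Nfil3, through the elements that ROR receptors activate. The E-box and D-box genes and the Arntl limb therefore peak at opposite times of day in many mouse tissues.

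Total counts ran from 24653507 to 27023608 in CT19 libraries and from 20317648 to 22585896 in CT10 libraries, with 22475 to 23926 and 19824 to 22167 genes detected. All 16 defining RPE markers tested were present, and their summed level was 46417 to 70052 CPM in CT19 libraries, against 45206 to 57364 CPM in CT10 libraries. The CT10 libraries stood apart from the CT19 libraries in nuclear and noncoding RNA. Noncoding genes took 2.28% to 3.28% of the counts at CT19, against 4.15% to 4.82% at CT10. In the other wild type libraries the share reached into the CT10 range, at 3.80% to 4.69% at CT22 and 2.66% to 4.64% at CT1. Malat1, an abundant nuclear noncoding RNA, was at 2074, 2264 and 3709 CPM (counts scaled to library size) in CT19 replicates 1, 2 and 4, against 8206, 6686 and 9317 CPM in the same-numbered CT10 replicates. Rn7sk, the 7SK RNA of the transcription elongation machinery, was at 8.64, 6.00 and 10.4 CPM at CT19, against 44.0, 35.4 and 43.9 CPM at CT10. Each CT10 value lay above every CT19 value for these measures, and their part in the results below was not tested.

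Of 20275 genes tested, 158 passed a Benjamini-Hochberg adjusted p of 0.05 in edgeR's quasi-likelihood test, which is 0.779% of them. A gene that passed is called below. At CT19, 0.567% of the genes tested were called higher than at CT10 and 0.212%, which is 43 genes, were called lower. The median log2 fold change, CT19 minus CT10, was 0.95 among the higher genes and -1.46 among the lower ones, against 0.07 over all genes tested. The CT19 and CT10 libraries did not overlap for any of the 158, but this was also true of 5969 of all genes tested (29.4%). Most calls lay close to the threshold: 73.42% of the 158 had an adjusted p of 0.04 or more, and 75.95% were called in none of the 6 fits that left out 1 library, which called 14 to 34 genes. With DESeq2's size factors (RLE) in place of TMM scaling, 28 genes were called, 11 higher and 17 lower, so the share called higher was 39.3% with RLE against 72.8% with TMM.

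**Figure D1:**
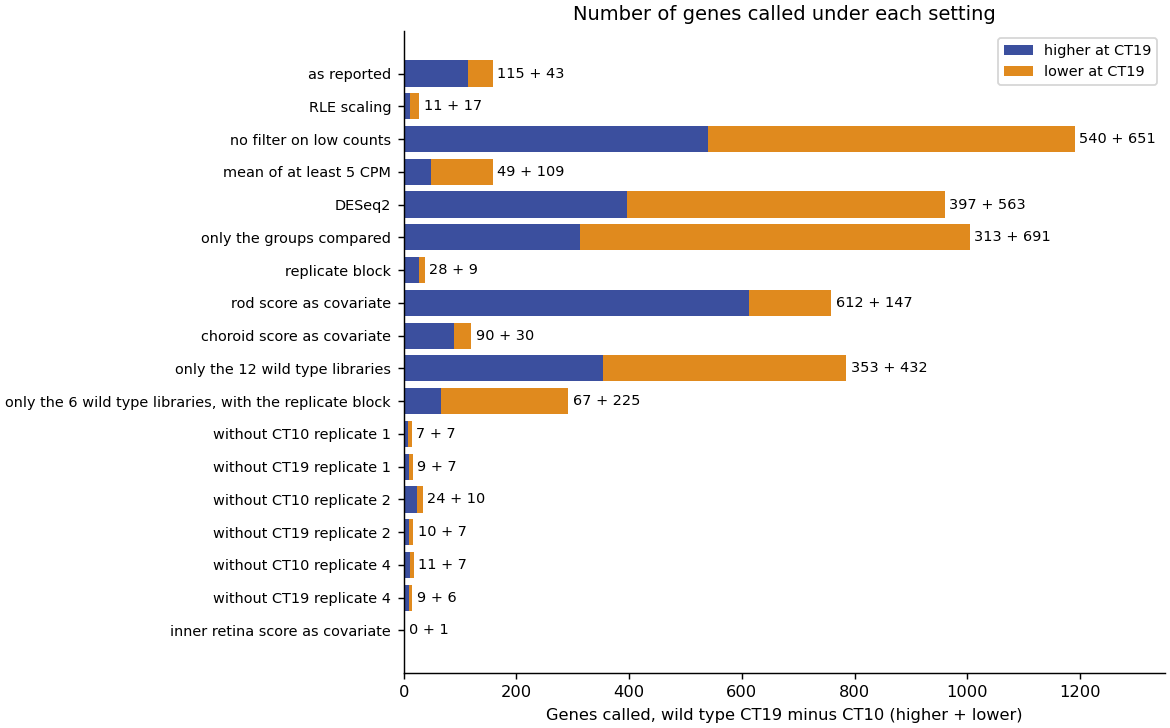
Number of genes called in wild type RPE, CT19 minus CT10, under each setting; the horizontal axis counts genes, blue bars are genes higher at CT19 and orange bars genes lower at CT19. The count is 158 as reported (72.8% of them higher), 14 to 34 when 1 library is left out, and 1191 without a filter on low counts, and the share of higher genes differs between settings.

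In every fit that left out 1 library, 10 genes were called, 6 of them lower and 4 higher at CT19. The 6 lower ones were Ciart, Dbp, Nr1d1, Per2, Per3 and Rn7sk. The 4 higher ones were Rasl11a, Nfil3, Hexim1 and Cdh3. Of these 10, 6 belong to the clock lists. Ciart alone was also called under every other setting, including a fit, added after the data were seen, with an inner retina marker score as a covariate (the mean log2(CPM + 1) of 20 markers). In that fit no other gene was called. That score was higher in all 3 CT19 libraries than in any CT10 library, so in these libraries the score and the time cannot be told apart.

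Most clock genes called between the times are driven through E-boxes and D-boxes and were lower at CT19. Of the 15 in that list, 8 were called lower and none higher, against 0.212% of all genes called lower, and the list's median log2 fold change was -0.75. The fall was steepest for Ciart, a repressor of CLOCK and BMAL1, followed by Per2, Dbp, Per3, Per1 and Nr1d1. The falls of Tef and Nr1d2 had the smallest values of the 8.

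Ciart (ENSMUSG00000038550, chromosome 3, 95878503 to 95882251, GRCm38) was at 2.71, 2.73 and 3.25 CPM in CT19 replicates 1, 2 and 4, against 79.9, 36.5 and 49.4 CPM in CT10 replicates 1, 2 and 4. It was low in every CT19 library and high in every CT10 library, with no overlap. It fell by 4.25 in log2 units (SE 0.43), with an adjusted p of 2.0e-05 in edgeR's quasi-likelihood test after Benjamini-Hochberg adjustment, the lowest of all genes tested. The RefSeq promoter window of Ciart, 250 bases before to 50 after the start on GRCm38.p6, is shown because it holds the E-box CACGTG 3 times, the highest number among the windows of called genes that were looked up. The E-boxes are in capitals, and the closest 2 begin 58 and 44 bases before the start.
Ciart, chr3:95882179-95882478, minus strand: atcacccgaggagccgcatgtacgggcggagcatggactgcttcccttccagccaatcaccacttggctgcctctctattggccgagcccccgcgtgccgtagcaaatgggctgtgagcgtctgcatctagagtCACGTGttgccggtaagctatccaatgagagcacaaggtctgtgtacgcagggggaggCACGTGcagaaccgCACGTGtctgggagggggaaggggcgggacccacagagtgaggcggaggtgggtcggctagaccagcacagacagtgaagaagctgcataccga

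Per2 (ENSMUSG00000055866, chromosome 1, 91415982 to 91459324), a period repressor that is phosphorylated and degraded to time the cycle, was at 30.9, 22.2 and 23.0 CPM at CT19, against 158, 92.3 and 160.3 CPM at CT10. It fell by 2.43 in log2 units (SE 0.32; edgeR Benjamini-Hochberg adjusted p 4.8e-04). Per3 (ENSMUSG00000028957, chromosome 4, 151003652 to 151044665), a period gene whose loss has milder effects on the clock in mice, was at 60.5, 57.5 and 53.8 CPM at CT19, against 175, 163 and 203 CPM at CT10. It fell by 1.65 (SE 0.26; edgeR Benjamini-Hochberg adjusted p 0.0027). For both genes every CT19 library lay below every CT10 library, and the CT10 values of Per2 were the more spread. Per1 (ENSMUSG00000020893, chromosome 11, 69095217 to 69109960), which light and cAMP also induce, was at 52.5, 41.3 and 43.9 CPM at CT19, against 186, 91.1 and 115.1 CPM at CT10. Its fall of 1.51 (SE 0.32) had an edgeR Benjamini-Hochberg adjusted p of 0.0426, and CT10 replicate 1 was the highest of the 3. Per1 was called in 1 of the 6 fits that left out a library, and not with RLE scaling. The windows of Per3 and Per1 are shown because Per3 holds 2 D-boxes (TTANGTAA) and Per1 an E-box, both in capitals. The D-boxes begin 205 and 158 bases before the start of Per3. The E-box begins 166 bases before 1 of the 2 RefSeq starts of Per1. That start, and the window shown, lie inside the span of the gene given above, not at its 5' end.
Per3, chr4:151044616-151044915, minus strand: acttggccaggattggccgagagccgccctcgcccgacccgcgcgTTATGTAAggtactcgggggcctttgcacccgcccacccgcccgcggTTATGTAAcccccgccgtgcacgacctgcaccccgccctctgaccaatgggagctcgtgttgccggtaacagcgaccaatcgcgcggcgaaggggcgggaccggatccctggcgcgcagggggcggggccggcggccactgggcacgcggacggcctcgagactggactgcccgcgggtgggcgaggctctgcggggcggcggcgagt
Per1, chr11:69098699-69098998, plus strand: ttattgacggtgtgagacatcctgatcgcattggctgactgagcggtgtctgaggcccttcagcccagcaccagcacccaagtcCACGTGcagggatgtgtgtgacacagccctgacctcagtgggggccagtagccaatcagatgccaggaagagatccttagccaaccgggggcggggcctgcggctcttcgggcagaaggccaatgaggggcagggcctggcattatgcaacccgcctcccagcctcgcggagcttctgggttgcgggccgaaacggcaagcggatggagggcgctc

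Dbp (ENSMUSG00000059824, chromosome 7, 45705088 to 45710203), an activator at D-boxes and a direct clock output, was at 120.4, 161 and 161 CPM at CT19, against 574, 462 and 458 CPM at CT10. The 3 libraries of each time lay close together, and Dbp fell by 1.76 in log2 units (SE 0.21; edgeR Benjamini-Hochberg adjusted p 1.3e-04). Its relative Tef was at 243, 263 and 246 CPM at CT19, against 434, 395 and 456 CPM at CT10, a fall of 0.77 (SE 0.16; edgeR Benjamini-Hochberg adjusted p 0.0338). The third member of that family, Hlf, was at 119.03, 149 and 166 CPM at CT19, against 124.7, 145 and 116.9 CPM at CT10, groups that overlapped, and was not called (log2 fold change 0.16). Nr1d1 (ENSMUSG00000020889, chromosome 11, 98767932 to 98775333), which encodes REV-ERB alpha, was at 83.6, 95.2 and 78.3 CPM at CT19, against 195, 169 and 181 CPM at CT10, and fell by 1.09 (SE 0.15; edgeR Benjamini-Hochberg adjusted p 4.8e-04). Nr1d2, which encodes REV-ERB beta, was at 72.4, 77.9 and 90.3 CPM at CT19, against 138, 123.5 and 142 CPM at CT10, and fell by 0.75 (SE 0.15; adjusted p 0.0338 in the same edgeR test). Both receptors were lower in all 3 CT19 libraries, with the narrower separation for Nr1d2. Tef was called in none and Nr1d2 in 1 of the 6 fits that left out a library. Exons of Dbp overlap Sphk2, those of Nr1d1 overlap Thra and those of Tef overlap Gm17597, all on the opposite strand. The sources used here do not give the strand setting of the counting, so reads of these pairs cannot be told apart.

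The other 7 members of the list were not called. The repressor Cry2, whose exons overlap D930015M05Rik on the opposite strand, was at 60.0, 60.9 and 43.7 CPM at CT19, against 99.7, 74.5 and 77.6 CPM at CT10, with a log2 fold change of -0.61 and an adjusted p of 0.078 in the same edgeR test. Its groups did not overlap. Cry1 had the opposite sign, at 54.3, 37.8 and 34.5 CPM at CT19, against 28.5, 32.7 and 31.1 CPM at CT10 (log2 fold change 0.46, SE 0.24; edgeR adjusted p 0.30). The groups of Cry1 did not overlap either. The E-box repressors Bhlhe40 (0.12) and Bhlhe41 (-0.09), the deubiquitinase Usp2 (0.18) and the mitotic kinase Wee1 (-0.03) had log2 fold changes near 0 and overlapping groups. Bhlhe40, Bhlhe41 and Usp2 also overlap another gene on the opposite strand.

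Nfil3 and Arntl were higher at CT19. Of the 8 tested genes of the Bmal1 limb, these 2 were called, both higher, against 0.567% of all genes called higher, and the list's median log2 fold change was 0.44. Nfil3 (ENSMUSG00000056749, chromosome 13, 52967209 to 52981073), a repressor at the D-boxes that Dbp activates, was at 21.7, 20.2 and 15.6 CPM at CT19, against 6.35, 7.37 and 5.08 CPM at CT10. Every CT19 library was above every CT10 library, and Nfil3 rose by 1.61 on the log2 scale (SE 0.24; edgeR Benjamini-Hochberg adjusted p 0.0012). Arntl (ENSMUSG00000055116, chromosome 7, 113207465 to 113314126) was at 74.8, 49.7 and 43.9 CPM at CT19, against 17.8, 21.2 and 25.9 CPM at CT10. The groups did not overlap, and Arntl rose by 1.38 (SE 0.32; edgeR Benjamini-Hochberg adjusted p 0.0495), but it was called in none of the 6 fits that left out a library. Its exons overlap Gm45355 on the opposite strand. The windows of both genes are shown because each holds the ROR element TAGGTCA, in capitals, read on either strand. It begins 12 bases before the start of Nfil3, on the opposite strand, and 30 bases after 1 of the 2 RefSeq starts of Arntl.
Nfil3, chr13:52980990-52981289, minus strand: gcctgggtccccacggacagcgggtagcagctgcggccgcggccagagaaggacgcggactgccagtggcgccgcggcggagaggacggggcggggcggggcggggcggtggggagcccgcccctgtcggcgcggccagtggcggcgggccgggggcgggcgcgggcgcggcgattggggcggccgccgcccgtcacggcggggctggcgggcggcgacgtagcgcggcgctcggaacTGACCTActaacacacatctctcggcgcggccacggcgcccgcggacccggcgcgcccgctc
Arntl, chr7:113207261-113207560, plus strand: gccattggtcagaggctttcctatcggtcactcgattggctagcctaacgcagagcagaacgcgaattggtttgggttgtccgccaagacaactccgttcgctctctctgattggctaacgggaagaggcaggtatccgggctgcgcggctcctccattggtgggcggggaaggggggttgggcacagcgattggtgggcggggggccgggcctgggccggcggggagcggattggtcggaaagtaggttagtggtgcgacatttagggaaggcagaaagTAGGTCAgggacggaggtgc

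The remaining genes of this limb were not called. Clock, the partner of BMAL1, was at 66.6, 78.2 and 108 CPM at CT19, against 63.1, 62.6 and 65.5 CPM at CT10 (log2 fold change 0.40, SE 0.16), groups that did not overlap, and its relative Npas2 was at low levels in all 6 libraries. The ROR receptor genes Rora and Rorb had log2 fold changes of 0.14 and 0.59, and Rora overlaps another gene on the opposite strand. Arntl2, a paralog of Arntl, was low throughout, at 1.14, 1.20 and 0.666 CPM at CT19, against 5.28, 3.66 and 3.11 CPM at CT10 (log2 fold change -1.996, SE 0.58; edgeR adjusted p 0.0816). None of 14 other clock regulators was called. Their median was 0.09, with the kinases Gsk3b and Csnk1d at 0.34 and 0.09.

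**Figure D2:**
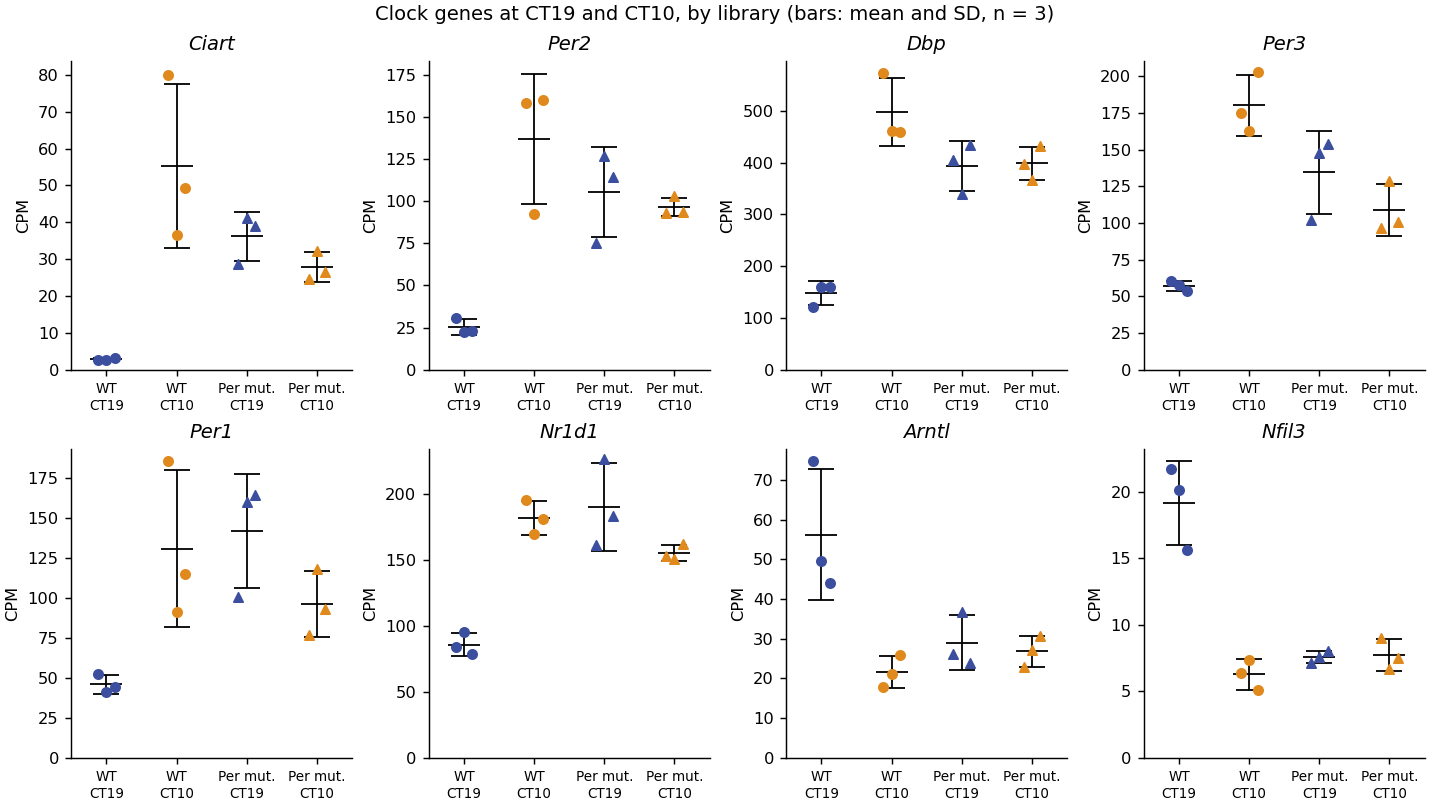
CPM of 8 clock genes, 1 panel each, with points for single libraries at CT19 (blue) and CT10 (orange) in wild type (circles) and Per mutant RPE (triangles), and bars for mean and SD (n = 3). In wild type, Ciart, Per2, Dbp, Per3, Per1 and Nr1d1 are lower in all 3 CT19 libraries and Arntl and Nfil3 are higher, while the Per mutant means at the 2 times lie closer together.

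Windows were looked up for 33 called genes, those of the core clock lists and of the 15 largest rises and falls, and 25 had one in the RefSeq promoter table. The windows of Dbp, Nr1d1, Nr1d2 and Rasl11a hold none of the 3 motifs as spelled, and no window of Per2 or Cdh3 was matched. The window of Susd1, called higher at CT19, and a window of Tef, called lower, also hold the E-box and are not shown. Over both strands, the E-box was found in 7.15% of all 32851 windows, the D-box in 2.32% and the ROR element in 2.61%. Among called genes outside the clock lists, the E-box was in 8.11% of 37 windows of lower genes and 11.3% of the windows of higher genes, and in 9.06% of the windows of all genes tested. With G at its N, the D-box shares the run TAGGT with the ROR element.

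The wild type values at the remaining times, which enter neither side of the contrast, place CT10 apart from the others for Ciart and Per2. Ciart averaged 2.90 ± 0.307 CPM at CT19, 2.46 ± 0.773 at CT22, 4.08 ± 2.56 at CT1 and 55.3 ± 22.3 at CT10 (SD, n = 3 each). Per2 averaged 25.3 ± 4.81, 18.1 ± 8.72, 15.5 ± 5.90 and 137 ± 38.6 CPM at the same times in that order. Both were low at the 3 times of the late night and early day and high at CT10 alone. Nr1d1 differed, at 85.7 ± 8.63 CPM at CT19, 104 ± 5.82 at CT22, 165 ± 4.25 at CT1 and 182 ± 13.0 at CT10, so that its CT1 value lay near CT10. Nfil3 averaged 19.2 ± 3.16, 17.3 ± 2.70, 17.9 ± 2.34 and 6.27 ± 1.15 CPM, with CT10 the lowest. These orders are given without a test.

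In Per mutant RPE no gene was called between the same times in edgeR's quasi-likelihood test (0.0% of 20275), and DESeq2 called 24. An unadjusted edgeR p under 0.05 was found for 795 genes in the mutant, against 3905 in wild type. The 795 are a smaller share of the genes tested than the p level of 0.05. Per1 and Per2 counts were higher, not lower, in the CT19 libraries labelled mutant than in wild type, at 142 ± 35.6 and 45.9 ± 5.85 CPM for Per1 and 106 ± 26.9 and 25.3 ± 4.81 CPM for Per2 (SD, n = 3). A deleted stretch of a gene cannot be seen in counts summed over its exons, so these counts do not check the label, and the directions below rest on the labels as given. The genes called higher in wild type had a median log2 fold change of 0.02 in the mutant, and 62 of them were above 0. The 43 called lower had a median of -0.13, and 26 were below 0. The size of the change was smaller in the mutant for all 158, and nothing is read from this, since the genes were chosen by their wild type change.

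The change between the times itself differed between the genotypes for 7 genes (0.0345% of 20275), by an edgeR test of the wild type change minus the Per mutant change. The difference was positive for 1 of them (0.00493%) and negative for 6 (0.0296%). All 7 were also called in wild type. Ciart was at 28.7, 41.1 and 38.8 CPM in mutant CT19 replicates 2, 3and5 and 4, against 24.6, 32.3 and 26.4 CPM in the mutant CT10 replicates, groups that overlapped. Its change differed by -4.63 on the log2 scale (SE 0.55; edgeR Benjamini-Hochberg adjusted p 4.3e-04). Nr1d1 was at 161, 226 and 183 CPM at CT19, against 153, 151 and 162 CPM at CT10 in the mutant, and its change differed by -1.38 (SE 0.21; edgeR adjusted p 0.0057). Its log2 fold change in the mutant was 0.29 (SE 0.15), not called and opposite in sign to wild type. The difference was -1.74 for Dbp (SE 0.30; edgeR adjusted p 0.0202), -2.56 for Per2 (SE 0.44; 0.0247) and -1.96 for Per3 (SE 0.36; 0.0378).

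Rasl11a, a small GTPase of the RAS superfamily, was the only gene with a larger rise in wild type among the 7. It was at 9.70, 9.41 and 10.4 CPM in mutant CT19 libraries, against 10.8, 9.80 and 12.7 CPM in mutant CT10 libraries, and the difference of the changes was 1.96 (SE 0.31; edgeR Benjamini-Hochberg adjusted p 0.0074). The last of the 7, the pseudogene Gm9176, was under 5 CPM. Per1, Nfil3 and Arntl did not pass this test, with differences of -2.07 (SE 0.45; edgeR adjusted p 0.15), 1.64 (SE 0.33; 0.10) and 1.26 (SE 0.44; 0.28). The other genes called in wild type did not pass it either, so a change of another size in the mutant is not shown for them.

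**Figure D3:**
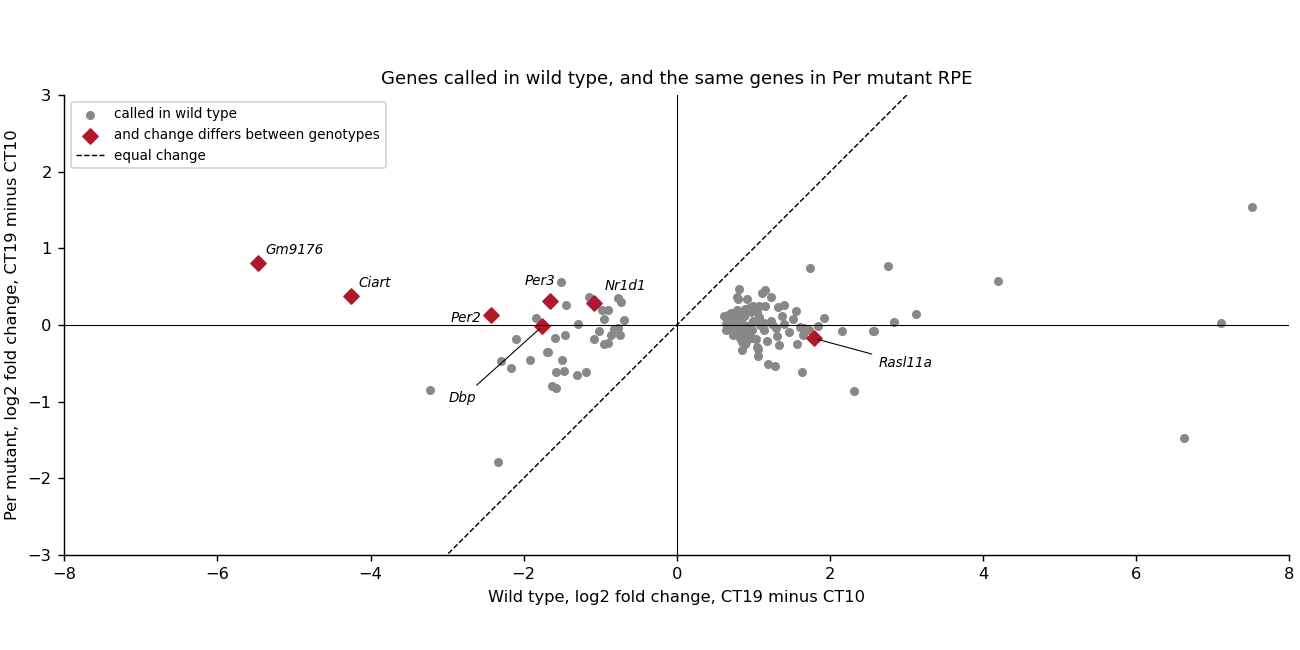
Log2 fold change, CT19 minus CT10, of the 158 genes called in wild type RPE, with wild type on the horizontal axis and Per mutant RPE on the vertical axis; red diamonds are the 7 genes whose change differs between the genotypes and the dashed line marks equal change. Most points lie close to 0 on the mutant axis, with medians of 0.02 for the higher and -0.13 for the lower genes.

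Outside the clock lists, 3 genes rose at CT19 in every fit that left out 1 library. Rasl11a (ENSMUSG00000029641, chromosome 5, 146845071 to 146847726) was at 18.8, 20.2 and 18.1 CPM at CT19, against 6.21, 5.47 and 4.83 CPM at CT10. The libraries of each time lay within a narrow band, and it rose by 1.79 on the log2 scale (SE 0.22; edgeR Benjamini-Hochberg adjusted p 1.3e-04). Cdh3 (ENSMUSG00000061048, chromosome 8, 106510891 to 106557297), the gene of P-cadherin, the adhesion protein of RPE cell junctions, was at 251, 419 and 385 CPM at CT19, against 99.5, 136 and 83.9 CPM at CT10. It rose by 1.72 (SE 0.27; edgeR Benjamini-Hochberg adjusted p 0.0025), and the lowest CT19 library was still above the highest CT10 library. Cdh3 averaged 422 ± 59.9 CPM at CT22 and 269 ± 37.1 CPM at CT1 in wild type, and 139 ± 26.9 CPM at CT19 and 145 ± 12.3 CPM at CT10 in the mutant (SD, n = 3). Hexim1 (ENSMUSG00000048878, chromosome 11, 103116231 to 103119725), which with 7SK RNA holds the elongation kinase P-TEFb inactive, was at 56.2, 59.3 and 71.8 CPM at CT19, against 28.0, 27.0 and 33.2 CPM at CT10. It rose by 1.09 (SE 0.17; edgeR Benjamini-Hochberg adjusted p 0.0024). Rn7sk, its RNA partner, fell by 2.30 (SE 0.36; edgeR adjusted p 0.0027). Rn7sk is among the noncoding measures given above that set the CT10 libraries apart, and a link between the changes of Hexim1 and Rn7sk was not tested. Hexim1, Rn7sk, Malat1 and Rnf144b were chosen for naming after their values were seen.

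Bdh1 and Rnf144b also rose, and each lost its call in 1 of those 6 fits, the one without CT10 replicate 1. Bdh1 (ENSMUSG00000046598, chromosome 16, 31422280 to 31458901), the mitochondrial enzyme of ketone body metabolism, was at 49.6, 43.2 and 43.9 CPM at CT19, against 18.1, 21.9 and 22.2 CPM at CT10, and rose by 1.14 (SE 0.19; edgeR Benjamini-Hochberg adjusted p 0.0041). Its exons overlap Gm15743 on the opposite strand. Rnf144b, a ubiquitin ligase, was at 29.9, 31.0 and 30.1 CPM at CT19, against 10.6, 12.4 and 15.7 CPM at CT10, and rose by 1.24 (SE 0.20; 0.0036). For both genes the lowest CT19 library was well above the highest CT10 library. Klhdc8a, a kelch domain protein, was called in 3 of the 6 fits. It was at 52.2, 146 and 92.3 CPM at CT19, against 21.5, 34.9 and 24.7 CPM at CT10, a rise of 1.84 (SE 0.32; edgeR adjusted p 0.0115) in which CT19 replicate 2 was the highest.

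**Figure D4:**
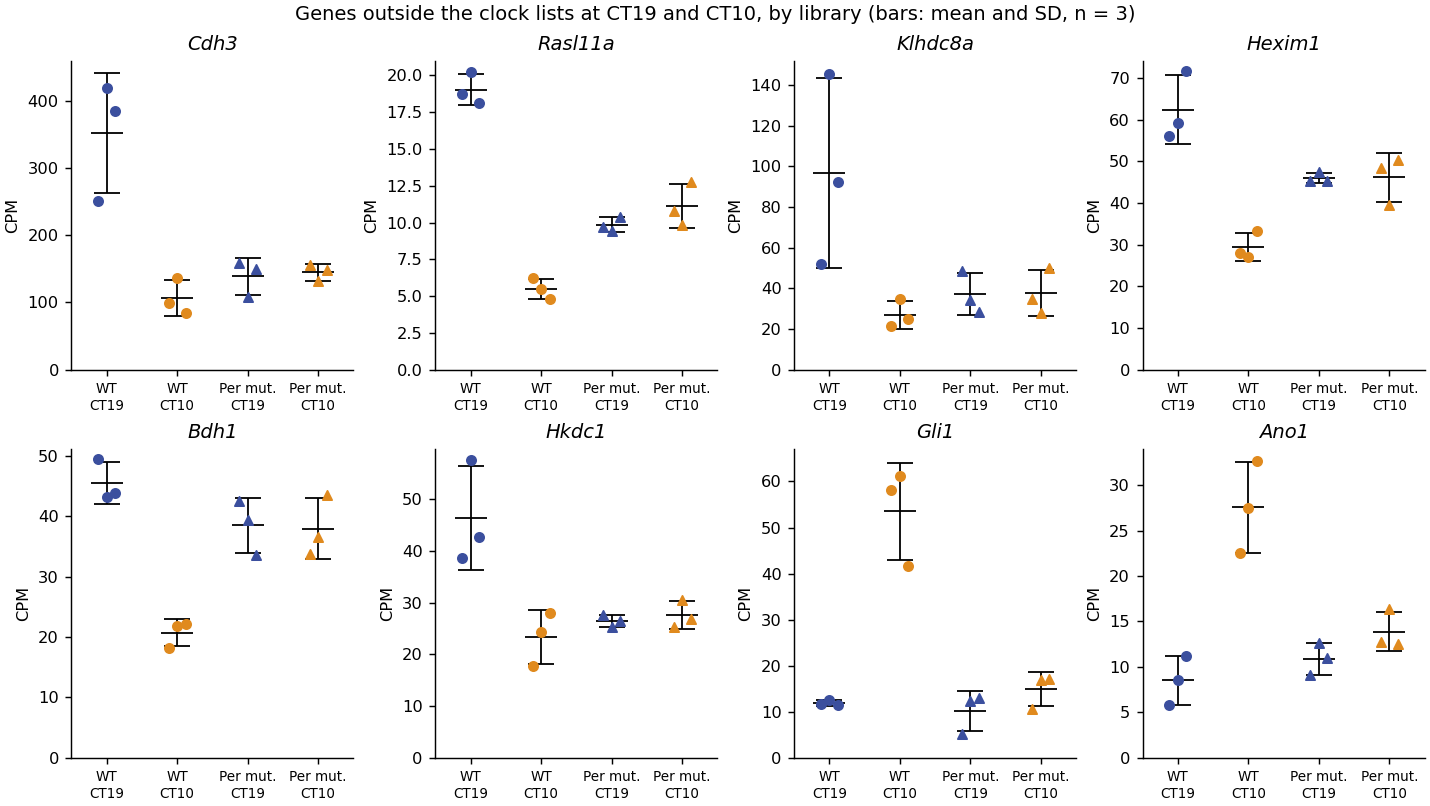
CPM of 8 genes outside the core clock lists, 1 panel each, with points for single libraries at CT19 (blue) and CT10 (orange) in wild type (circles) and Per mutant RPE (triangles), and bars for mean and SD (n = 3). In wild type Cdh3, Rasl11a, Klhdc8a, Hexim1, Bdh1 and Hkdc1 are higher and Gli1 and Ano1 lower in all 3 CT19 libraries, with no overlap between the times.

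The 15 largest rises by the naming rule, among called genes at 5 CPM or more, ran from 1.33 for Thbs1 to 2.57 for Gad1 on the log2 scale. They included genes of neurons. Gad1, which makes the transmitter GABA in inner retinal cells, was at 11.1, 11.1 and 16.2 CPM at CT19, against 0.654, 1.98 and 3.77 CPM at CT10 (log2 fold change 2.57, SE 0.52; edgeR adjusted p 0.0338). Gad1 averaged 7.71 ± 2.02 CPM at CT22 and 15.9 ± 10.5 CPM at CT1 in wild type (SD, n = 3). In the mutant it averaged 12.1 ± 7.06 CPM at CT19 and 12.7 ± 1.91 CPM at CT10, so wild type CT10 was the low group. Cadps, which primes secretory vesicles, rose by 2.16, Drd4, the dopamine receptor of photoreceptors, by 1.75, and the synaptotagmin Syt17 by 1.57. Of the 8 groups, wild type CT10 also had the lowest means of Cadps and Drd4, at 2.23 and 18.5 CPM. The lowest mean of Syt17 was in mutant CT19, at 7.74 CPM. Beside these rises, the summed level of the 20 inner retina and Muller glia markers was 11479 to 14455 CPM in CT19 libraries, against 8359 to 9490.2 CPM in CT10 libraries. Of these markers 18 were above 0, 10 had an unadjusted p under 0.05, as did 19.3% of all genes tested, and none was at 0 in all 6 libraries. The list's median was 1.00 in wild type and -0.09 in the mutant, and the list shares Rlbp1, Apoe, Trpm1 and Vim with the RPE. Their part in the rises was not tested beyond the fit with this score given above. In bulk samples, fewer cells of a type and less RNA per cell cannot be told apart.

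Pmel, which forms the fibrils of pigment granules, was at 1299, 429 and 472 CPM at CT19, against 342, 186 and 183 CPM at CT10, and rose by 1.63 (SE 0.36; edgeR Benjamini-Hochberg adjusted p 0.0434). The groups did not overlap, but CT19 replicate 1 was far above the other libraries. Its exons overlap Cdk2 and Dgka on the opposite strand. All 9 choroidal melanocyte markers, Pmel among them, were above 0 and their summed level was 5287 to 5843 CPM in CT19 libraries, against 2561 to 3141 CPM in CT10 libraries. Pigment genes are shared by melanocytes and RPE, and the part of melanocytes was not tested. The matrix glycoprotein Thbs1, an inhibitor of vessel growth, was at 1616, 1949 and 1859 CPM at CT19, against 773, 659 and 726 CPM at CT10 (log2 fold change 1.33, SE 0.32; edgeR adjusted p 0.0497). The other rises of this group were Susd1 (1.66), the alarm cytokine Il33 (1.64), the interferon regulator Irf7 (1.55) and the protease Prss23 (1.52). Irf7 overlaps Phrf1, Prss23 overlaps Prss23os and Thbs1 overlaps Gm29233 on the opposite strand. Thbs1, Susd1, Il33, Irf7, Prss23, Syt17 and Cadps were called in none of the fits that left out 1 library, and Gad1, Drd4 and Pmel in 1.

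The 15 largest falls held Ciart, Per2, Dbp, Per3 and Per1 and 10 genes outside the clock. Gli1, a transcription factor and target of hedgehog signalling, was at 11.6, 12.6 and 11.4 CPM at CT19, against 58.1, 61.1 and 41.5 CPM at CT10, and fell by 2.17 (SE 0.46; edgeR Benjamini-Hochberg adjusted p 0.0426). In the mutant it averaged 10.1 ± 4.25 CPM at CT19 and 14.9 ± 3.67 CPM at CT10 (SD, n = 3), near the wild type CT19 level at both times. Its exons overlap Arhgap9 on the opposite strand. Ano1, a calcium-activated chloride channel, was at 5.85, 8.53 and 11.2 CPM at CT19, against 22.6, 27.5 and 32.6 CPM at CT10, a fall of 1.69 (SE 0.39; edgeR adjusted p 0.0495). Both were clearly separated between the times.

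Among these falls, 4 are genes of immune cells or immune signalling. Pld4, a nuclease of immune cells, fell by 2.33, the myeloid receptor Cd300lf by 2.103, the adenylyl cyclase Adcy7 by 1.92 and the costimulatory ligand Icosl by 1.58. All 4 were at low levels in every CT19 library. In the mutant their log2 fold changes were -1.79, -0.18, -0.46 and -0.82 in the same order, none of them called. Of 17 immune cell markers none was called, 13 were below 0 and none was at 0 in all 6 libraries. Their median log2 fold change was -0.89 in wild type and -1.60 in the mutant, so the lower values were not particular to wild type. Their summed level overlapped at 450.1 to 669 CPM in CT19 libraries, against 515 to 617 CPM in CT10 libraries. The mechanosensitive channel Piezo2 fell by 1.63, the endothelial transcription factor Sox17 by 1.58, the vesicle protein Baiap3 by 1.68 and Sspo, the gene of SCO-spondin, by 1.84. The endothelial marker sums overlapped too, at 759 to 1473 CPM in CT19 libraries, against 992 to 1225 CPM in CT10 libraries, and the part of choroidal or immune cells in these falls was not tested. Sox17 and Baiap3 overlap a gene on the opposite strand. None of the 10 falls outside the clock was called in a fit that left out 1 library, nor with RLE scaling. Of all 158 called genes, 45 have an exon that overlaps another gene.

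Genes of outer segment uptake were not called at these times. With 0.779% of all genes tested called, lists of this size would seldom hold a call. Among 20 genes of recognition and bridging the median log2 fold change was 0.26. Of the 20, 4 were higher and 3 lower at an unadjusted p under 0.05, as were 19.3% of all genes tested in either direction. Their summed level was 4491 to 4996 CPM in CT19 libraries, against 3850 to 4085 CPM in CT10 libraries. Mertk, the receptor that triggers engulfment, was at 155, 234 and 241 CPM at CT19, against 246, 237 and 263 CPM at CT10 (log2 fold change -0.24, SE 0.20; edgeR Benjamini-Hochberg adjusted p 0.54), groups that overlapped. Itgb5, the integrin subunit that binds outer segments, was at 124.2, 189 and 142 CPM at CT19, against 114.5, 115.01 and 98.6 CPM at CT10 (0.47, SE 0.25; 0.30), groups that did not overlap. Mertk and Itgb5 were chosen for naming after their values were seen. By the naming rule, Lrp1 was at 0.03 and Tulp1 at 0.49 in this list. None of 26 engulfment and actin genes (median 0.33), 38 phagosome and lysosome genes (0.45) or 26 autophagy genes (0.30) was called. Of these lists 8, 13 and 8 members were higher at an unadjusted p under 0.05, where 2482 of all 20275 genes were (12.2%). The autophagy gene Gabarapl1 had the largest value among those named, 0.84 (SE 0.22; edgeR adjusted p 0.0618), the lysosomal genes Psap and Ctsd were at 0.57 and 0.59, and the cell cortex genes Ezr and Slc9a3r1 at 0.27 and 0.41.

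Lists of RPE function held 0 to 2 calls each, where 0.779% of all genes tested were called. The share called was 5.56% of melanin, 4.0% of RPE identity, 6.90% of adhesion and 6.90% of ion and water transport genes. Each share rests on 1 or 2 genes, with Cdh3 in 2 of the lists. None of 12 visual cycle genes was called (median 0.35), and the opsin Rgr and the retinol carrier gene Ttr were at 0.03 and 0.30. Among 18 melanin genes Pmel was the only call, and among 25 RPE identity genes Cdh3 was. Of 29 adhesion genes 2 were called, Cdh3 and the nectin gene Nectin1, which was at 124.7, 135 and 103 CPM at CT19, against 82.3, 63.3 and 65.0 CPM at CT10 (log2 fold change 0.78, SE 0.18; edgeR adjusted p 0.0495). Of 29 ion and water transport genes, the water channel Aqp1 was higher, at 137, 94.1 and 109.9 CPM at CT19, against 68.5, 70.1 and 52.8 CPM at CT10 (0.84, SE 0.20; 0.0497), and Ano1 was lower. Nectin1, Aqp1 and Ano1 were called in none of the fits that left out 1 library.

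Of 30 glycolysis genes 2 were called, both higher at CT19, against 0.567% of all genes called higher. Log2 fold changes were above 0 for 27 of the 30, with a median of 0.52, and 17 were higher at an unadjusted p under 0.05, as were 12.2% of all genes tested. Hkdc1, a hexokinase family gene, was at 38.7, 57.7 and 42.7 CPM at CT19, against 17.7, 24.4 and 28.1 CPM at CT10, and rose by 0.99 (SE 0.21; edgeR Benjamini-Hochberg adjusted p 0.0338). Pgk1, the phosphoglycerate kinase, was at 189.6, 124.4 and 108 CPM at CT19, against 62.2, 67.0 and 71.8 CPM at CT10, and rose by 1.07 (SE 0.26; 0.0497). Rods also use these genes, and the summed rod marker level was 36602 to 78775 CPM in CT19 libraries, against 31514 to 50133 CPM in CT10 libraries, highest in CT19 replicate 1, as it was for Pgk1. The part of rods was not tested beyond a fit with the rod score as a covariate, in which both genes were called. Neither was called in a fit that left out 1 library. Bdh1 was the only call among 29 genes of fatty acid oxidation and ketogenesis (median 0.22). None of 39 nuclear genes of oxidative phosphorylation (0.32), 12 mitochondrial mRNAs (0.04), 28 cholesterol genes (0.41) or 36 ribosomal protein genes (-0.04) was called.

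Each list of stress and signal-responsive genes held 0 to 2 calls, where 0.779% of all genes tested were called. The share was 5.0% of endoplasmic reticulum stress, 11.8% of glucocorticoid-induced, 3.85% of immediate early and 4.0% of cAMP-induced genes. Each share rests on 1 or 2 genes, with Per1 in 2 of the lists. None of 20 heat shock genes was called, although 18 were above 0, the median was 0.67 and 13 were higher at an unadjusted p under 0.05, against 12.2% of all genes tested. The chaperone Hsp90aa1 was at 1389, 1124 and 1434 CPM at CT19, against 728, 899 and 810.3 CPM at CT10 (log2 fold change 0.70, SE 0.20; edgeR adjusted p 0.078), and its groups did not overlap. All 3 cold-inducible genes were below 0, with Cirbp at -0.75 and Srsf5 at -0.84, and none was called. Creld2, a protein of the endoplasmic reticulum stress response, rose by 1.00 (SE 0.21; edgeR adjusted p 0.034) as the only call among 20 such genes. The growth inhibitor Ddit4 rose by 0.76 (SE 0.16; 0.0338), while Per1, in the same list of 17 glucocorticoid-induced genes, fell. Among 26 immediate early genes Ier5 rose by 1.06 (SE 0.24; 0.0474), and among 25 cAMP-induced genes Per1 was the only call. Creld2, Ddit4 and Ier5 were called in none of the fits that left out 1 library.

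Immune and secreted lists held 1 call, where 0.779% of all genes tested were called. None of 7 MHC class II genes was called (median -0.79 in wild type and -2.20 in the mutant). No call was made among 23 complement and macular degeneration genes (0.15), 34 secreted and matrix genes (0.22), 29 antioxidant genes (0.40) or 22 cell cycle genes (0.06). Irf7 was the only call among 22 interferon genes (4.55%). Other marker lists had no call: rods (median 0.41), cones (0.42), endothelium (0.10), fibroblasts (-0.19), mural cells (-0.22), blood (0.70) and muscle (1.36). Blood markers summed to 238 to 275 CPM in CT19 libraries, against 56.9 to 197 CPM in CT10 libraries. Muscle markers varied widely within each time, at 6.19 to 132.5 CPM in CT19 libraries, against 5.08 to 56.9 CPM in CT10 libraries.

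**Figure D5:**
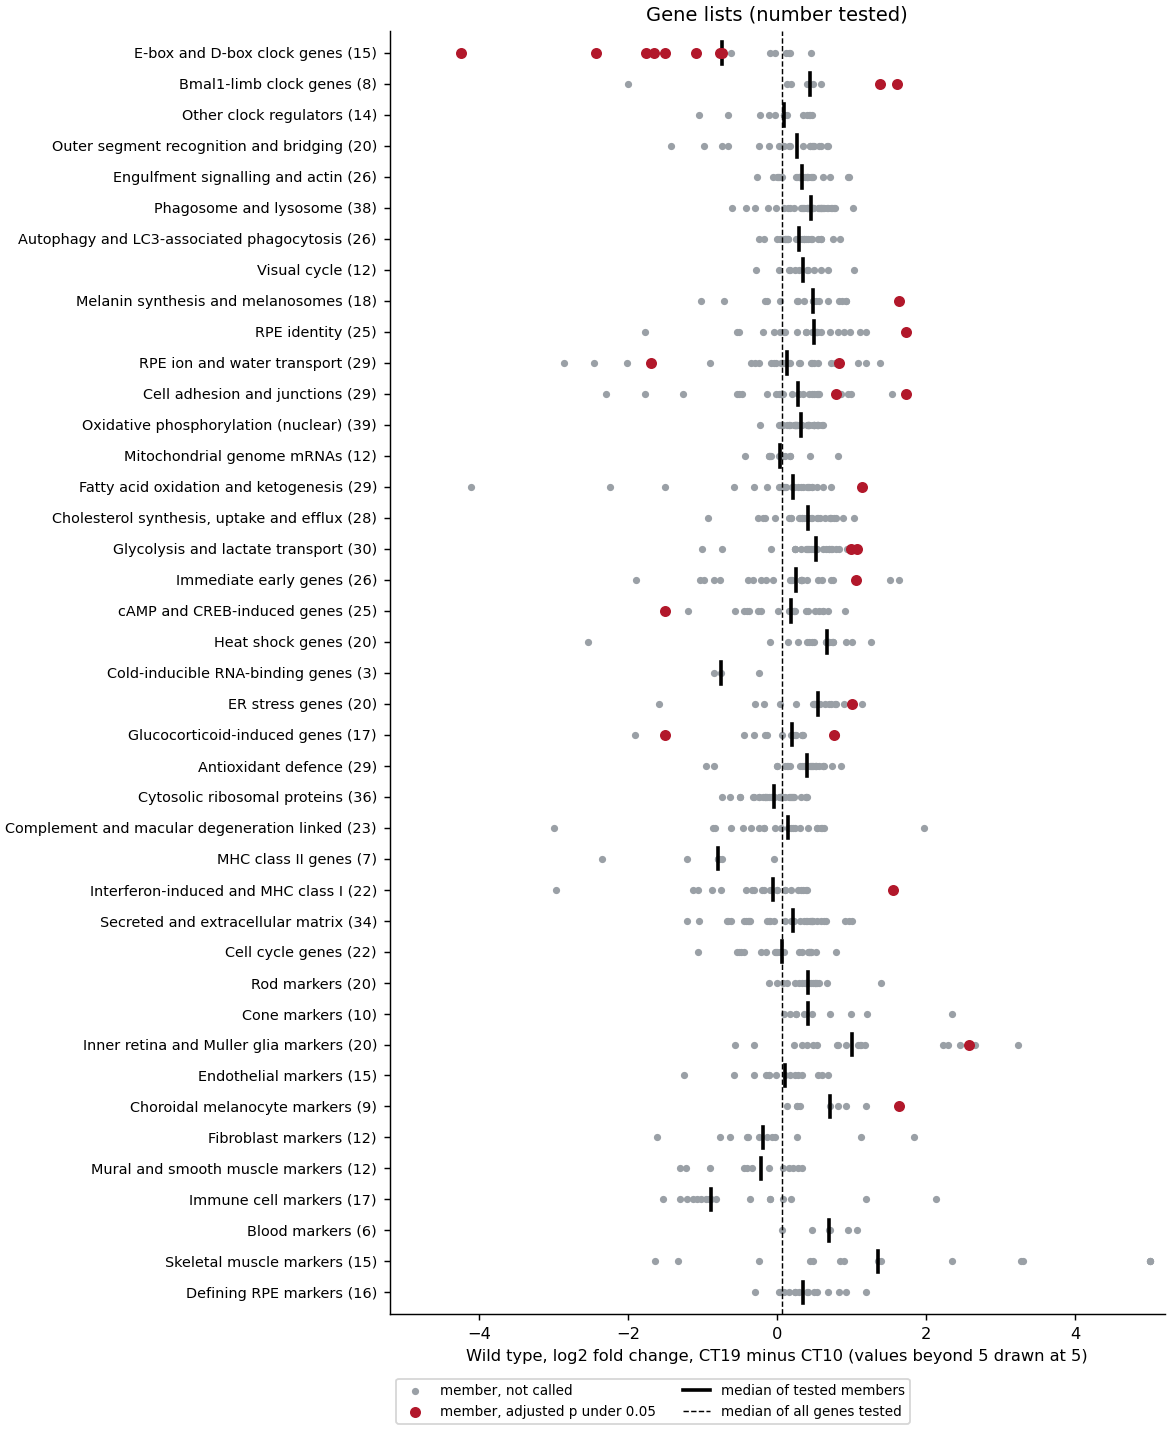
Log2 fold change, CT19 minus CT10 in wild type RPE, of every tested member of each gene list (small grey points), with called members as larger red points, black ticks at each list's median and a dashed line at the median of all genes tested (0.07). The called members gather in the E-box and D-box clock list, 8 of 15, while each other list holds 0 to 2.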

How the data were processed

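RPE of 24 mouse libraries was sequenced, and raw read counts per gene, whole numbers with no normalization, were deposited by the authors for 54232 gene identifiers. Per the submitters' processing notes, the build was GRCm38.p6 and the tools were HTSeq 0.11, HISAT2 2.1.0, Trimmomatic 0.32 and Cufflinks. The sources used here do not give what each tool did, which annotation release was counted or whether strand was used. All count columns matched a sample (0 did not) and no row stood for unassigned reads. Symbols, coordinates and exon overlaps came from the GENCODE vM21 annotation on GRCm38, which matched 54165 identifiers, and promoter windows from RefSeq on GRCm38.p6.

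The test was that of edgeR 4.0.16, run in R 4.3.3. filterByExpr (minimum count 10) left 20275 genes, scaled by TMM. A robust quasi-likelihood model of the 8 group means over all 24 libraries left 16 residual degrees of freedom. The contrasts were CT19 minus CT10 in wild type, the same in Per mutant, and their difference. CPM use the TMM factors, and errors are the SD of libraries or the SE of the log2 fold change. That SE was derived from the test, as the size of the log2 fold change divided by the square root of its F statistic. The procedure was tested on simulated data. Alternatives were RLE scaling, other filters, DESeq2 1.42.0, fewer groups, a replicate block, marker scores as covariates and leaving out each library. Within each of the 4 groups compared, wild type and Per mutant at CT19 and CT10, the chi-square of any 2 libraries was 37.7 or more per degree of freedom, so none was a repeat.

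The comparison, the 41 gene lists (11 of them markers), the tests and the naming rule were chosen with earlier results of these data known. The rule named every tested member of the 2 core clock lists and the 15 largest rises and falls among called, protein-coding genes of at least 5 CPM whose groups did not overlap. It also named up to 6 called members of each other list or, where none was called, its 2 most abundant members, and the genes whose change differed between genotypes. Of the core clock members that the rule named, 1 is not reported here.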

Additional observations from a re-analysis of the deposited data

Results flagged for a closer look

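For 6 of the genes named, the change between CT19 and CT10 differed between wild type and Per mutant RPE by a direct edgeR test of that difference, with Benjamini-Hochberg adjustment over 20275 genes. The log2 difference, wild type change minus Per mutant change, was -4.63 for Ciart (adjusted p 4.3e-04), -2.56 for Per2 (0.025), -1.96 for Per3 (0.038), -1.74 for Dbp (0.020) and -1.38 for Nr1d1 (0.0057). In wild type all 5 were lower in each CT19 library than in each CT10 library. The difference was 1.96 for Rasl11a (edgeR adjusted p 0.0074), which was higher in each wild type CT19 library. The mutant libraries of Ciart, Dbp and Rasl11a overlapped or lay close together between the times.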

How the results depend on the processing

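Genes called are given as a percent of the genes tested under each setting, with their number. In wild type RPE the 0.779% as reported (158 genes) became 0.138% with RLE scaling (28), 3.64% without a filter on low counts (1191), 4.73% with DESeq2 (960), 5.78% with only the 2 groups in the fit (1004), 3.74% with the rod score as a covariate (759) and 4.15% with only the 12 wild type libraries (785). It was 0.0691% to 0.168% when 1 library was left out (14 to 34). It was 0.592% with a choroid score as a covariate, and 158 genes with a minimum of 5 CPM, of which 90 were shared. The RLE fit moved the median log2 fold change of all genes to -0.03. The share called higher, 72.8% as reported, was 45.3% without a filter, 31.0% at 5 CPM and 41.4% with DESeq2. With the inner retina score, added after the data were seen, 0.00493% were called in wild type (1), 0.0444% in the mutant (9) and 0.00493% for the difference (1). In Per mutant RPE the count of 0 became 0.523% without a filter (171), 0.118% with DESeq2 (24) and 0% to 0.0148% when 1 mutant library was left out (0 to 3). For the difference between genotypes the 0.0345% (7) became 1.65% without a filter (538), 0.661% with DESeq2, 0.182% with the rod score (37) and 0.0148% to 0.0345% when 1 wild type library was left out (3 to 7). The cause of these shifts was not tested. No named gene changed sign between a called and another value. Replicate numbers 1, 2 and 4 recur at both wild type times, but same-numbered libraries did not deviate together (correlations of -0.028, -0.067 and -0.138). The fit as reported treated them as unpaired. With deviations taken from means of 3 libraries, these correlations cannot tell whether same-numbered libraries share more than a number. With the replicate block 0.182% were called in wild type (37), 1.68% in the fit of the 6 wild type libraries with that block (292) and 0.0197% for the difference (4). With 3 libraries a time, genes close to the threshold cannot be settled.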
